A study of Mus musculus with 4 samples.

Results

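The ROSA-Cre pair consists of 1 RNA sequencing library from mouse megakaryocytes labelled Gfi1b wild-type and 1 from megakaryocytes labelled Gfi1b knockout. These are 2 of the 4 libraries of the series and were picked by their titles. A gene was described where the higher of the pair held at least 100 counts. That left 11151 of 41214 gene identifiers. A count in at least 1 of the pair was found for 19656 identifiers, and 8505 of these stayed under the limit. Just inside it, 122 genes with fewer than 110 counts had a median log2 ratio of 0.23, and just outside it, 145 genes with 90 to 99 counts had one of 0.26.

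Both groups of the pair were C57Bl/6 mice, 8 weeks old, with the Cre status ROSA-Cre, and differed by the Gfi1b genotype, wild-type or KO. A second pair, also wild-type and KO, had the Cre status PF4-Cre and the same strain and age. In each group, cells of tibiae, femora and humeri had been sorted as lineage-negative, cKit+, CD41+ and CD61+. The labels do not say whether the ROSA-Cre allele needs an inducer, which Gfi1b exons are removed, or how many mice went into a library. As background, the Rosa26 locus is active in most cell types, whereas the Pf4 promoter drives expression mainly in megakaryocytes.

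Megakaryocytes are the large polyploid cells of the bone marrow that shed platelets. GFI1B is a zinc finger repressor of megakaryocytes and red cell precursors that recruits the LSD1-CoREST histone demethylase complex through its SNAG domain. It and its paralogue GFI1 bind DNA at sites with an AATC core, and both are known to repress their own genes and each other's.

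Promoter sequences of 6 genes on which the results below turn are shown first. Each is the 250 bases before the gene's most upstream RefSeq start, 5′ to 3′ on the gene's strand, on build GRCm38.p6. Capitals mark AATC or its reverse complement GATT. Gfi1b and Gfi1 are shown as the targeted gene and its paralogue, Tmem215 and Plagl1 as the genes of 100 CPM or more with the highest ratios, and Clec1b and Gp5 as platelet receptor genes of 100 CPM or more with a high and a low ratio.
Gfi1b (chr2:28621983-28622232, minus strand): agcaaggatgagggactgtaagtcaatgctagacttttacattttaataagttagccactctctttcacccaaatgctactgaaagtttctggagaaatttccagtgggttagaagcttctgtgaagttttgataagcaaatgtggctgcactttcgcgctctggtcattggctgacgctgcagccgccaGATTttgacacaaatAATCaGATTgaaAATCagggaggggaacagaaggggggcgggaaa
Gfi1 (chr5:107725806-107726055, minus strand): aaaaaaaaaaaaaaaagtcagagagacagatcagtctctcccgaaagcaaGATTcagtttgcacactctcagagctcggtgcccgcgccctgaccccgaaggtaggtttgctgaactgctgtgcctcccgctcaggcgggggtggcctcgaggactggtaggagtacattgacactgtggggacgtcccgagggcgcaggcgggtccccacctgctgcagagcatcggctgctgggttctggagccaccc
Tmem215 (chr4:40471930-40472179, plus strand): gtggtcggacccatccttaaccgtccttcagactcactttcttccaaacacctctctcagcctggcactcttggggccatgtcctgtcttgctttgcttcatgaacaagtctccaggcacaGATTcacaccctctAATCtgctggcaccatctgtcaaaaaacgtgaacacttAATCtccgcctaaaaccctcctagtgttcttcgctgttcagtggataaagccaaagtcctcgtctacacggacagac
Plagl1 (chr10:13090582-13090831, plus strand): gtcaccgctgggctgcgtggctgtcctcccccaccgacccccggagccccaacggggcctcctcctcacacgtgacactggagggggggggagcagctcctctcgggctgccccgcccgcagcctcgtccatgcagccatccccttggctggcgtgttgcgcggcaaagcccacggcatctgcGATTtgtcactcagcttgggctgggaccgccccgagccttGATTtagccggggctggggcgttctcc
Clec1b (chr6:129397047-129397296, plus strand): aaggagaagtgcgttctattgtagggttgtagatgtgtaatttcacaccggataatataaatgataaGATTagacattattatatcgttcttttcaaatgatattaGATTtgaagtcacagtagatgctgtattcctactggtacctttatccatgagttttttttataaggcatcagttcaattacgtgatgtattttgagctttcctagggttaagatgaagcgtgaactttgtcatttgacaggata
Gp5 (chr16:30310782-30311031, minus strand): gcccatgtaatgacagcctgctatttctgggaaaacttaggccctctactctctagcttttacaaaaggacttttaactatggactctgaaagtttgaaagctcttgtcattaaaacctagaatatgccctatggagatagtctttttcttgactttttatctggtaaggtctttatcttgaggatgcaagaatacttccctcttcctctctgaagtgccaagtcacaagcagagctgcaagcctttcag
The Gfi1b window holds 4 such cores, that of Tmem215 3, those of Plagl1 and Clec1b 2 each, that of Gfi1 1 and that of Gp5 0. A longer form, AAATCA on either strand, occurs 1 time in the windows of Gfi1b and Plagl1. The GATA-type motif AGATAA on either strand occurs 2 times in the Gp5 window and in none of the other five.

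Gene counts totalled 24869421 in the wild-type and 21835165 in the knockout library of the ROSA-Cre pair, and 61652843 and 59595680 in the PF4-Cre pair. After TMM scaling, which sets libraries on a common footing, levels are given as CPM, the count relative to the scaled library size. The upper limit behind a count of 0 was 0.122 CPM in the ROSA-Cre wild-type and 0.134 CPM in the knockout. With 1 library a side there is no spread between replicates within the pair, so ratios carry a 95% Clopper-Pearson interval that covers counting error only. Both ROSA-Cre libraries held Y-linked transcripts next to Xist, the RNA of the inactive X chromosome of female cells. Ddx3y had 1607 and 1791 counts and Xist 2818 and 6334 (wild-type first), while the PF4-Cre libraries held 0 and 0 counts of Ddx3y and 75074 and 77495 of Xist. The sex-linked genes were named after their values were seen, and sex cannot be told apart from the Cre model where the pairs are compared. Within the ROSA-Cre pair the Xist ratio was 2.47 (2.36 to 2.58) and that of Ddx3y 1.22 (1.14 to 1.31). Whether the share of female cells differed between these libraries was not tested, and it cannot be told apart from the genotype there.

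Gfi1b, which the knockout label refers to, had the higher count in the library labelled knockout. Its count was 5864 (238 CPM) in the ROSA-Cre wild-type and 55122 (2462 CPM) in the ROSA-Cre knockout, and 10137 and 84744 in the PF4-Cre libraries. The ROSA-Cre ratio was 10.3 (interval 10.1 to 10.6). A gene count sums all exons, so with the removed exons not stated it cannot check the label, and every direction given here is that of the library labelled knockout. Gfi1 went from 198 to 2128 counts, a ratio of 11.8 (10.2 to 13.7). Per kilobase of exons Gfi1b stood at 738 CPM over the pair and Gfi1 at 16.2 CPM. Both genes passed the one test the series allows, edgeR's fit over all 4 libraries with the Cre model as a term (adjusted p = 0.000142 and 0.00129), in which the spread is the disagreement between the pairs. Of a list of 14 known or proposed GFI1 and GFI1B target genes above the limit, 6 were at least 2-fold higher and 1 lower. These are 42.9% and 7.14%, beside 10.2% and 4.82% of all genes described. The list holds Gfi1b and Gfi1 themselves, which are among its higher genes. Its median log2 ratio was 0.82, or 0.56 with a minimum of 500 counts in the higher library. Of 18 genes listed for LSD1-CoREST and related corepressors, none reached 2-fold in either direction, the extremes being Zmym2 (1461 and 2450 counts, log2 ratio 0.88) and Rcor2 (3406 and 1678, log2 ratio -0.88).

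In the ROSA-Cre pair, 1132 genes were at least 2-fold higher in the library labelled knockout, 10.2% of those described, and 538 were at least 2-fold lower, 4.82%. At 8-fold the difference between the directions was wider, with 139 genes higher (1.25%) and 22 lower (0.197%). Genes on the higher side started from low levels. Their median was 6.30 CPM in the wild-type and 23 CPM in the knockout, and in the 8-fold group it went from 0.975 to 17.3 CPM, with 70 of 139 genes under 1 CPM in the wild-type. Genes on the lower side went from a median of 27.4 to 9.89 CPM. At any size 5380 of the genes described were higher and 5771 lower. Counts for the gene lists below are to be read beside these values and the 10.2% and 4.82% at 2-fold. The limit of 100 counts in the higher library lets a gene enter from either side, so a gene close to 0 in one library could enter only through a large ratio. The counting interval lay wholly beyond 2-fold for 862 of the higher and 346 of the lower genes. Across both Cre models, 1904 of 15063 genes tested by edgeR rose (12.6%) and 1444 fell (9.59%). Of the 1132 genes, 960 were among those that rose, and of the 536 tested genes on the lower side 368 were among those that fell, counts that the ROSA-Cre libraries themselves helped to fix. Fits that left out 1 library also lost the Cre model term, so their counts cannot be set against those of the fit over all 4 libraries. The p-values measure the spread between these samples only.

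**Figure D1:**
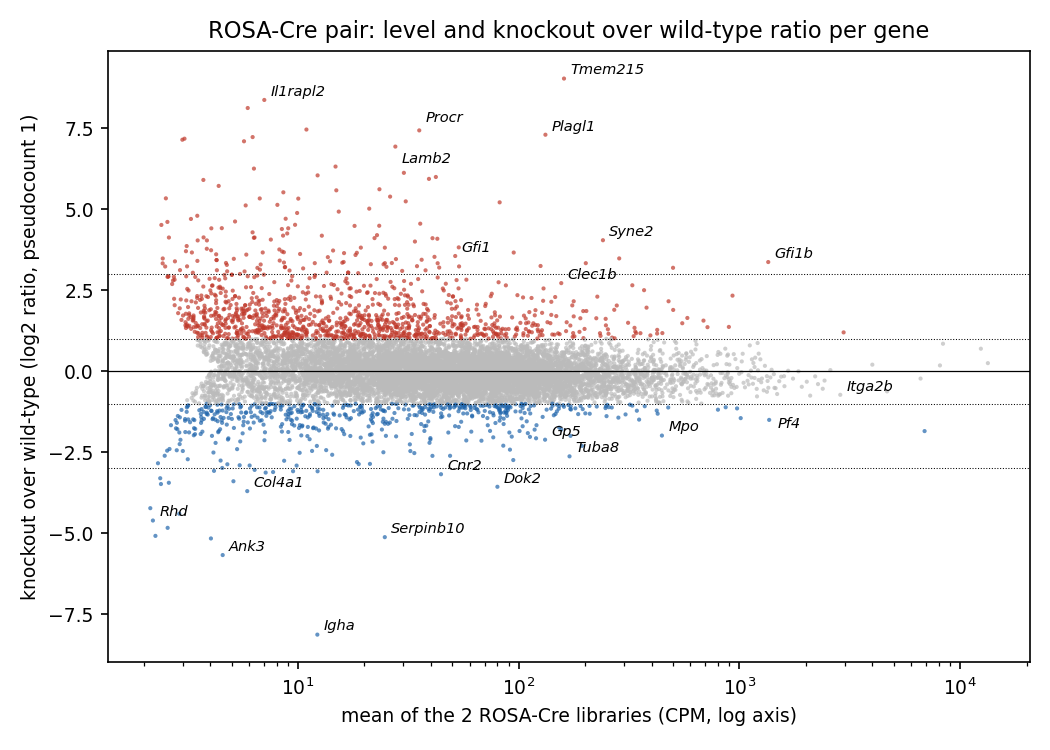
Each point is 1 of 11151 genes, with the mean CPM of the ROSA-Cre pair on a log axis and the log2 ratio of knockout over wild-type on the other. Red and blue mark at least 2-fold higher and lower, dotted lines stand at 2-fold and 8-fold, and the 139 genes above the upper 8-fold line outnumber the 22 below the lower one.

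The 12 genes with the highest ratios were near silent in the wild-type library and well counted in the one labelled knockout. Tmem215, a gene for a transmembrane protein, had 14 counts in the wild-type and 7168 in the knockout, a ratio of 563 (335 to 1029.8). Plagl1, an imprinted zinc finger transcription factor that restrains growth, had 40 and 5879 counts (ratio 162, 118 to 226). Procr, the protein C receptor found on endothelium and on long-term stem cells, had 9 and 1578 counts (ratio 193, 101 to 422). These genes moved from 0.366 to 1.63 CPM in the wild-type to between 70.5 and 320 CPM. Lamb2, a laminin chain of basement membranes, had 10 and 1227 counts (ratio 135, 73.1 to 282). Rasgrp3, an exchange factor for Ras and Rap GTPases, had 8 and 655 counts (ratio 90, 45.4 to 209). Colec11, a secreted collectin, had 2 and 487 counts (ratio 268, 73.7 to 2216).

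Of the other six, wild-type counts were 0 or 1. Il1rapl2, an interleukin-1 receptor family member, had 0 and 315 counts, at least 115-fold higher when the 0 is set to 3 counts in that library. The same bound was 97.1-fold for the secreted protein gene Pi15 (0 and 265 counts), 50.2-fold for Prrt4 (0 and 137) and 49.1-fold for the zinc finger gene Zfp37 (0 and 134). Chst2, a sulfotransferase, had 1 and 278 counts (ratio 306, 54.4 to 12111), and Adamts9, a secreted metalloprotease, had 1 and 254 (ratio 279, 49.7 to 11069). The upper limits are wide because a single read stands in the wild-type. All 12 genes rose in edgeR's fit over both models, with adjusted p between 3.81e-06 (Tmem215) and 0.00239 (Chst2). The ROSA-Cre libraries that chose these genes are part of that fit, so it is no separate check, here or for genes named below. In the PF4-Cre pair, which did not choose them, the log2 ratios of the 12 ran from 3.83 (Chst2) to 9.49 (Tmem215).

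At the other end, 12 low genes were taken after leaving out immunoglobulin genes and genes that the annotation types as pseudogenes. The second group includes Serpinb10, typed as a polymorphic pseudogene, whose 1184 and 30 counts (35.9-fold lower) would otherwise place it after Ank3. None of the 12 genes was at 0 in the library labelled knockout. Dok2, an adaptor that dampens receptor and Ras signalling, had 3634 counts in the wild-type and 278 in the knockout, 11.9-fold lower (10.5 to 13.5). Cnr2, a cannabinoid receptor of blood cells, had 1971 and 197 counts, 9.10-fold lower (7.86 to 10.6). They had the highest counts of these 12 genes, and both Dok2 and Cnr2 fell in edgeR's fit (adjusted p = 0.0238 and 0.0103). Ank3, a membrane scaffold, had 221 and 3 counts, 67.0-fold lower (22.6 to 328), but did not pass (adjusted p = 0.0736). Rhd, the Rh blood group protein, had 105 and 3 counts, and Ly6g6f, a platelet membrane protein, 137 and 5, 24.9-fold lower (10.4 to 78.0), with adjusted p of 0.0283 and 0.35. Col4a1 and Col4a2, paired collagen chains of basement membranes that lie next to each other in the genome, had 270 and 18 counts and 230 and 19 counts. Col4a2 fell in edgeR's fit (adjusted p = 0.0427) and Col4a1 did not pass (adjusted p = 0.101). Ccm2l, Sh2d4a, Add2, Tspan33 and Cyp4x1os made up the rest, between 8.99-fold (Tspan33) and 23-fold (Ccm2l) lower. Cyp4x1os is antisense to Cyp4x1, and without a stated strand setting its reads cannot be told from those of its partner.

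**Figure D2:**
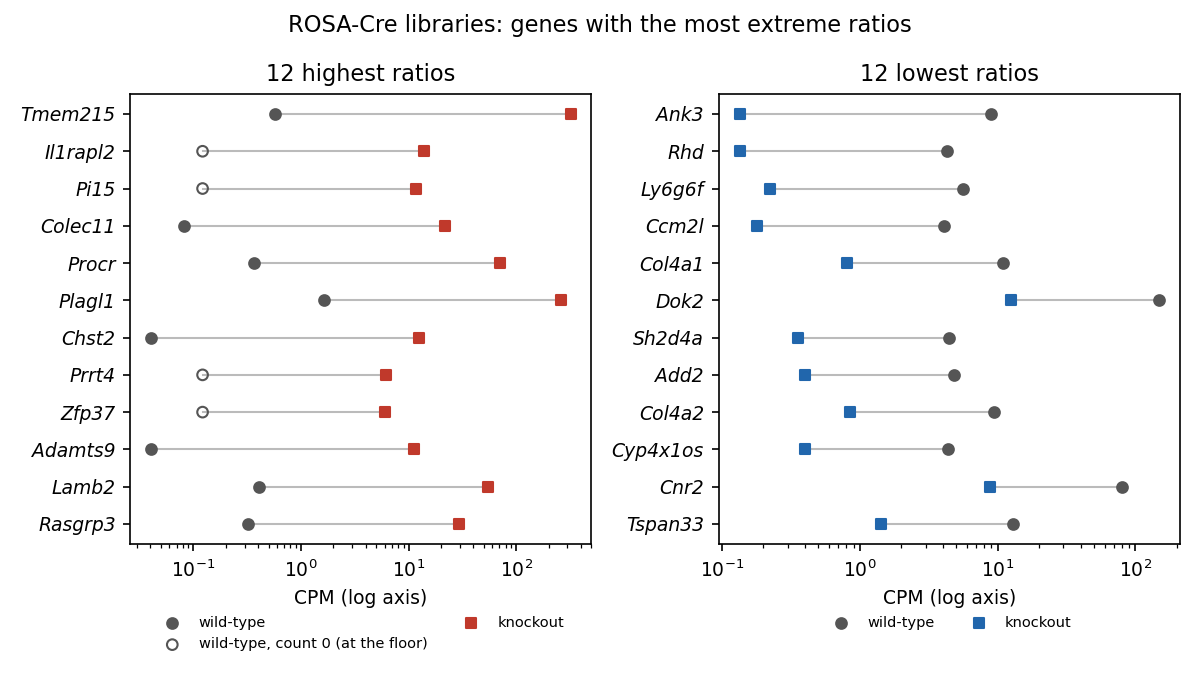
CPM on a log axis in the ROSA-Cre wild-type (circles) and knockout (squares) library for the 12 genes with the highest and the 12 with the lowest ratio, genes annotated as pseudogenes (Serpinb10 among them) and immunoglobulin genes left out. Open circles are counts of 0 drawn at the floor of 3 counts, and the filled wild-type circles on the higher side lie between that of 1 read and 1.63 CPM.

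Among genes averaging 100 CPM or more over the pair, changes remained large. Syne2, a nuclear envelope protein that links the nucleus to actin, had 677 and 10163 counts (ratio 16.5, 15.3 to 17.9). Galnt6, an enzyme that starts O-linked glycans, had 1153 and 11723 (ratio 11.2, 10.5 to 11.9), and the membrane-binding protein gene Anxa6 893 and 8201 (ratio 10.1, 9.42 to 10.8). Glul, glutamine synthetase, had 2428 and 20188 counts (ratio 9.14), Chd3, a chromatin remodeller of the NuRD complex, 588 and 5088 (9.51), Ncf1, a subunit of the phagocyte NADPH oxidase, 2210 and 12635 (6.28), and the intermediate filament gene Vim 2732 and 14069 (5.66). Every one of these 7 rose in edgeR's fit, with adjusted p of at most 0.00442 (Chd3). On the lower side Tuba8, an alpha tubulin, had 7196 and 1058 counts, 6.19-fold lower (5.80 to 6.61). Adgrl1, an adhesion receptor coupled to G proteins, had 7915 and 1456 counts (4.95-fold lower), Ckap2l, a spindle protein, 6753 and 1540 (3.99-fold), Slc7a5, the large amino acid transporter, 3884 and 982 (3.60-fold), and Slc16a1, the lactate transporter MCT1, 5781 and 1572 (3.35-fold). These 5 fell in edgeR's fit, with adjusted p between 0.00606 (Slc7a5) and 0.0145 (Slc16a1). Endod1 (4516 and 1176) fell as well, at an adjusted p of 0.00963.

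The genes of the sort markers, Pf4 and Vwf were abundant in both ROSA-Cre libraries. Itga2b, Itgb3 and Kit encode markers that were sorted on, so their level is no separate check of the cell type. Other megakaryocyte genes were scarce, with Gp1ba at 12.8 and 3.89 CPM, Gp6 at 2.93 and 4.69, Tubb1 at 16.0 and 4.96 and Ppbp at 25.6 and 20.9. Medians of all genes described were 41.5 and 41.8 CPM. Itga2b, which encodes CD41, had 87864 and 48249 counts (3570.3 and 2154.7 CPM, log2 ratio -0.73), Itgb3, which encodes CD61, 20032 and 31656 (0.80), and Kit 5797 and 7402 (0.49). Of these, Itgb3 rose across both models (adjusted p = 0.00912), and the other two did not pass. Pf4, platelet factor 4, had 49603 and 15919 counts (2.84-fold lower, 2.79 to 2.89) and fell in edgeR's fit (adjusted p = 0.0341). Vwf, von Willebrand factor, had 64624 and 34852 (log2 ratio -0.75), and Nfe2, a late megakaryocyte transcription factor, 7234 and 7131 (0.12). In the GPIb-IX complex that binds von Willebrand factor, Gp1ba had 316 and 87 counts (3.30-fold lower), Gp1bb 3034 and 1917 (log2 ratio -0.53) and Gp9 2186 and 1107 (-0.84). Only Gp9 of these 3 passed (adjusted p = 0.0339), with Gp1ba at 0.0648 and Gp1bb at 0.221. Gp6, the collagen receptor, was close to the limit at 72 and 105 counts, and the mature megakaryocyte tubulin Tubb1 had 393 and 111 (3.22-fold lower, adjusted p = 0.156). In bulk RNA, fewer cells of a type and less RNA per cell cannot be told apart.

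Of 25 megakaryocyte transcription factors, all with 100 or more counts, 5 were at least 2-fold higher (20%, beside 10.2% of all genes). The 1 that was at least 2-fold lower makes 4%, near the 4.82% of all genes. Over both models 6 of the 25 rose and 5 fell. Ets1 had 1691 and 6290 counts (ratio 4.09, 3.87 to 4.32), Gata2, the factor of early progenitors, 5236 and 17668 (3.71, 3.60 to 3.83), and Mecom, a stem cell factor, 579 and 1708 (3.24, 2.95 to 3.57). All 3 rose, with adjusted p of 0.000465, 0.00576 and 0.00307. Klf1, the erythroid factor, had 136 and 18 counts, 6.87-fold lower (4.19 to 11.9), and Srf, which drives actin genes, 3137 and 1580 (1.81-fold lower), and both fell (adjusted p = 0.00507 and 0.0263). Gata1, Fli1 and Runx1, named after their values were seen, had log2 ratios of -0.81, 0.37 and 0.25. Gata1 fell across both models (adjusted p = 0.0168), and the other two did not pass (0.248 and 0.172).

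Platelet surface genes held changes in both directions. Of the 25 adhesion receptor genes above the limit, 3 were at least 2-fold higher, a share of 12% near the 10.2% of all genes. At least 2-fold lower were 6, 24% beside 4.82%. Of 29 tested over both models 7 rose and 3 fell, where 12.6% of all tested genes rose and 9.59% fell. Clec1b, the podoplanin receptor CLEC-2 (promoter above), had 1011 and 6058 counts (ratio 6.59, 6.16 to 7.05, adjusted p = 0.000107). Fcer1g, the signalling chain of the collagen receptor, had 310 and 756 counts, and Esam, a junction protein, 1945 and 3803, and both rose (adjusted p = 0.00247 and 0.00409). Gp5, which attaches to GPIb-IX and whose promoter is shown above, had 5264 and 1105 counts, 4.33-fold lower (4.06 to 4.63), and fell (adjusted p = 0.0231). Sema7a, a membrane semaphorin, had 174 and 27 counts (5.86-fold lower), without passing (adjusted p = 0.126). Among 17 integrin subunits, Itga3, a laminin receptor chain, went from 4 to 104 counts and rose (adjusted p = 0.00649), and 1 gene was at least 2-fold lower, Itgam, the myeloid CD11b chain (643 and 272 counts).

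Receptors coupled to G proteins ranged from a log2 ratio of -3.18 (Cnr2) to 5.33 (Cnr1), with 6 rises and 6 falls among 26 tested. Of 21 above the limit 7 were at least 2-fold higher (33.3%, beside 10.2% of all genes) and 4 lower (19.05%, beside 4.82%). Cnr1, the cannabinoid receptor of neurons, had 7 and 294 counts (ratio 46.2, 22.1 to 116), opposite to Cnr2 above. F2r, the thrombin receptor PAR1, had 12315 and 28891 counts (ratio 2.58), and F2rl3, the thrombin receptor PAR4 that mouse platelets depend on, 2854 and 723 (3.59-fold lower, 3.31 to 3.90). Cnr1, F2r and F2rl3 each passed edgeR's test in its direction (adjusted p = 0.000264, 0.00368 and 0.0104). Htr2a, the platelet serotonin receptor, had 429 and 51 counts and fell (adjusted p = 0.0391), and S1pr1, a sphingosine phosphate receptor, had 121 and 522 and rose (0.00261). Downstream of the receptors, 2 of 33 genes of ITAM and inside-out signalling were at least 2-fold higher, Rasgrp3 and the adaptor Grap2 (1635 and 3981 counts). The 4 on the lower side included Lat, the scaffold of collagen receptor signalling (3178 and 933, 3.10-fold lower, adjusted p = 0.00783), and the kinase Fgr (154 and 49, adjusted p = 0.26).

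Of 25 genes of alpha granules, 3 were at least 2-fold higher, a share of 12% near the 10.2% of all genes, and 6 lower, 24.0% beside 4.82%. The matrix protein gene Sparc went from 10 to 352 counts (ratio 38.7, 20.8 to 81.4), and Timp3, a metalloprotease inhibitor, from 4666 to 10737, and both rose (adjusted p = 0.000196 and 0.00147). Pdgfb, the platelet-derived growth factor B chain, had 1609 and 555 counts and fell (adjusted p = 0.0253). Clu, a secreted chaperone, had 1098 and 247 (4.04-fold lower), while its PF4-Cre log2 ratio was 0.68 (adjusted p = 0.504 over both). Of 24 dense granule genes 2 were at least 2-fold higher, 8.33% and so also near the share of all genes, and none lower. They were Slc18a2, which loads serotonin into the granules (1598 and 6491 counts, ratio 4.46), and Slc35d3, needed for dense granule formation (4979 and 10575), which rose with adjusted p of 0.000394 and 0.00118. Among eicosanoid enzymes, Alox12, the platelet lipoxygenase, had 190 and 1749 counts (ratio 10.1, 8.71 to 11.8, adjusted p = 0.000107). The leukotriene enzymes of myeloid cells ran the other way, Alox5 with 1020 and 163 counts (5.69-fold lower, adjusted p = 0.101) and its activating protein Alox5ap with 2046 and 753 (2.47-fold lower, adjusted p = 0.011).

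Of 13 tubulin genes, 12 were lower at any size, 4 at least 2-fold, and 6 of 13 fell over both models while 0 rose. Besides Tuba8 they included Tubb2a (791 and 247 counts, adjusted p = 0.0249), and near-identical copies make single tubulins uncertain. In the actin and myosin list 7 of 48 genes were at least 2-fold higher (14.6%, beside 10.2% of all genes) and 5 lower (10.4%, beside 4.82%). Palld, an actin bundling scaffold, had 7 and 253 counts (ratio 39.7, 19 to 99.8), the nonmuscle myosin Myh14 5 and 152, and the bundling protein Pls3 89 and 506, and all 3 rose (adjusted p = 0.00038, 0.0014 and 0.00666). Coro1a, an actin-binding coronin of white cells, had 10157 and 3421 counts, 2.70-fold lower (2.60 to 2.81, adjusted p = 0.0072). Of 9 septins, filament GTPases of the cell cortex, Sept10 went from 23 to 664 counts and rose (adjusted p = 0.000374), and Sept8 had 3951 and 1454 and fell (0.00486).

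Genes of the S phase machinery were lower in the ROSA-Cre library labelled knockout without exception in the list of 45, although only 4 of them by 2-fold. Their median log2 ratio was -0.64, beside -0.02 over all genes described, and 37 of 45 fell over both models while 0 rose. Dut, which removes dUTP, had 5831 and 2364 counts (2.24-fold lower, adjusted p = 0.0112), the origin factor Orc1 508 and 186 (2.49-fold, 0.0185) and the helicase factor Gins1 965 and 397 (2.21-fold, 0.0141). In the list for mitosis and cytokinesis 42 of 49 genes were lower at any size, with 27 falls and 3 rises over both models. The mitotic kinase Plk1 had 2349 and 1034 counts and cyclin gene Ccnb1 3419 and 1528, and both fell (adjusted p = 0.0175 and 0.0118). Ect2, an exchange factor that cytokinesis needs, stood apart with 261 and 1174 counts (ratio 4.94, 4.32 to 5.67, adjusted p = 0.00862), as did the GTPase gene Rhoc with 89 and 308 (adjusted p = 0.00408). Among G1 regulators the cyclins Ccnd1 (1596 and 313 counts, 4.64-fold lower) and Ccnd2 (5377 and 2284) fell, with adjusted p of 0.00411 and 0.00269. The CDK inhibitors Cdkn1c (17 and 176, ratio 11.4, 6.91 to 20) and Cdkn1b (1566 and 2798) rose (adjusted p = 0.00261 and 0.00895). Of 53 replication histone genes 50 were lower at any size, 3 of them at least 2-fold (5.66%, near the 4.82% of all genes). At least 2-fold higher were 2. Hist2h2ab was the lowest (1593 and 541), though copies of these genes share sequence.

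Mitochondrial and secretory pathway genes were mostly lower. Of 77 nuclear genes of oxidative phosphorylation 75 were lower at any size, where 5771 of all 11151 genes were, and 36 fell over both models. By 2-fold 5 were lower, a share of 6.49% near the 4.82% of all genes, and 0 higher. Their median log2 ratio was -0.56, or -0.38 after a correction for GC content and length. The ATP synthase gene Atp5g1 had 2677 and 991 counts (2.46-fold lower, adjusted p = 0.0143), and Cox5a of complex IV 3065 and 1217 (2.29-fold, 0.0159). Mitochondrial ribosomal proteins had a median of -0.52 in 73 genes, with 15 falls and 0 rises in 74 tested. Cytosolic ones had a median of -0.24 in 78 genes, of which 72 were lower at any size and 0 reached 2-fold in either direction. Over both models 9 of 79 cytosolic genes fell, near the 9.59% of all tested genes, and 0 rose, beside 12.6%. After a correction for GC content and length the median of the cytosolic list was -0.10. The mitochondrially encoded genes had a median of 0.01, and mt-Rnr2, a ribosomal RNA, had 7152 and 18152 counts and rose (adjusted p = 0.0227). In the unfolded protein response list 7 of 26 genes were at least 2-fold lower and 1 higher, and 15 fell and 1 rose over both models. Sdf2l1, a folding cofactor of the endoplasmic reticulum, had 3785 and 642 counts (5.36-fold lower, 4.93 to 5.84), the chaperone Hyou1 12750 and 4118 and the lectin chaperone Calr 36495 and 12165 (2.73-fold). All 3 fell (adjusted p = 0.0218, 0.0263 and 0.0218). Cholesterol synthesis had 4 of 24 genes at least 2-fold lower and 0 higher. They included the lipoprotein receptor Lrp8 (797 and 103 counts, 7.04-fold), which fell (adjusted p = 0.012).

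**Figure D3:**
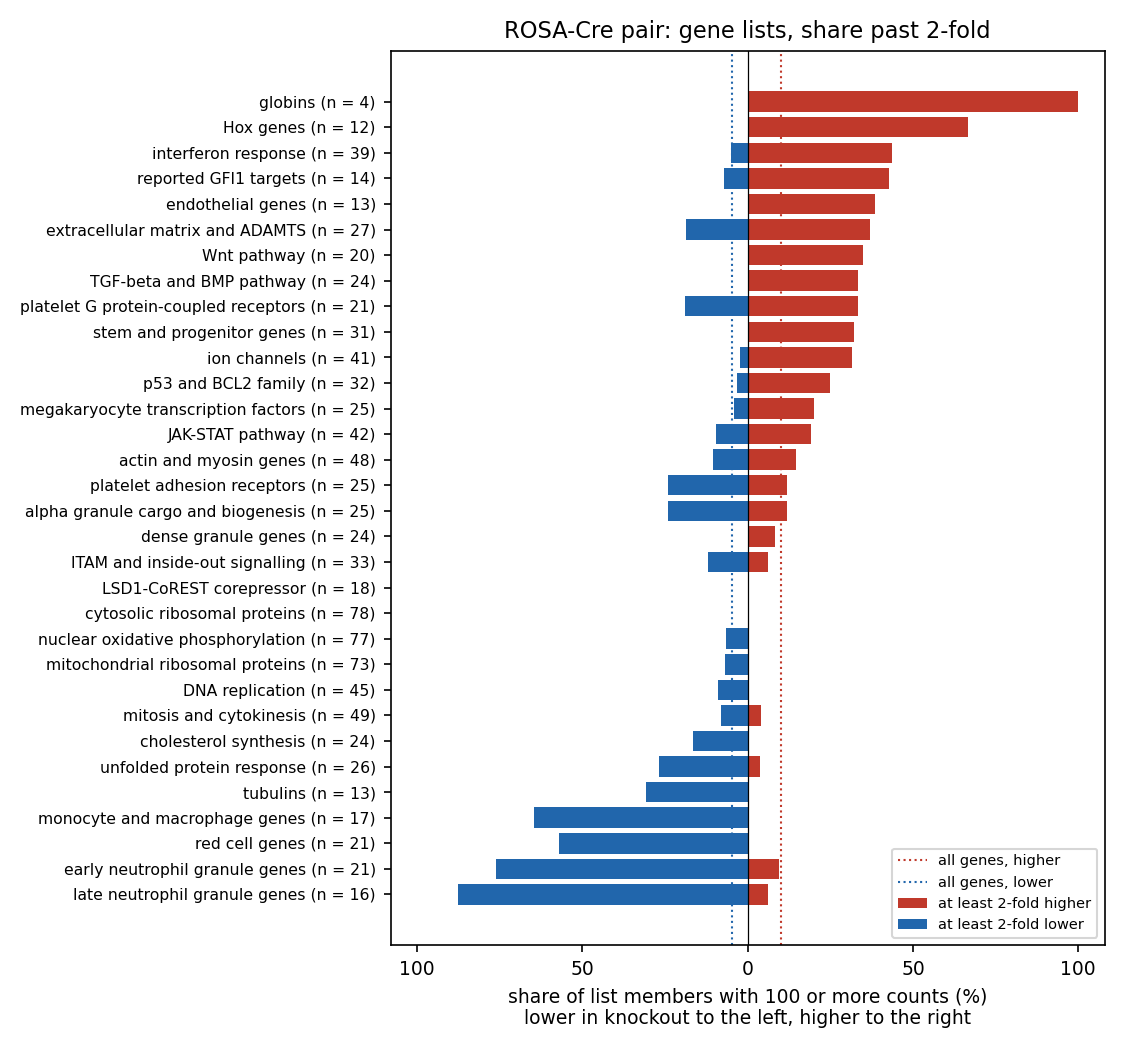
Bars give, for 32 gene lists, the percentage of genes with 100 or more counts that were at least 2-fold higher (red, right) or lower (blue, left) in the ROSA-Cre library labelled knockout, with the number of genes in brackets. Dotted lines are the shares over all genes, 10.2% and 4.82%, and the late neutrophil list reaches 87.5% on the lower side.

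Markers of other blood cells were present in both ROSA-Cre libraries, and those of neutrophils and monocytes were mostly lower in the one labelled knockout. Of 21 early neutrophil granule genes 16 were at least 2-fold lower and 2 higher (median log2 ratio -1.62). Mpo, the granule peroxidase, had 17505 and 4017 counts (3.97-fold lower, 3.83 to 4.10), and the proteases Elane, Prtn3 and Ctsg were 3.77-fold, 4.08-fold and 4.20-fold lower. These 4 fell over both models (adjusted p = 0.000299, 0.000316, 0.0009 and 0.000244). Serpinb10, a serpin of marrow cells, had 1184 and 30 counts, 35.9-fold lower (25.0 to 53.5, adjusted p = 0.0489). The pair on the higher side were Gfi1 and Anxa1 (892 and 2687 counts, adjusted p = 0.00247). The summed level of the list was 2187 CPM in the wild-type and 1098 CPM in the knockout, and in PF4-Cre 2316 and 1229 CPM, with none of its genes at 0.

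Late neutrophil granule genes were lower in the ROSA-Cre library labelled knockout. Of 16 genes above the limit 14 were at least 2-fold lower and 1 higher, with a median log2 ratio of -1.63 against 0.23 in PF4-Cre, where 0 of the 16 reached 2-fold. Ltf, lactoferrin, had 2721 and 559 counts (4.43-fold lower, 4.04 to 4.86) beside 5107 and 5144 in PF4-Cre. S100a9, a calcium-binding protein of neutrophils, had 5964 and 1558 (3.48-fold lower, 3.29 to 3.69) beside 15725 and 19476, and Camp, cathelicidin, 1590 and 335 beside 2168 and 2477. None of the 22 genes of the list tested over both models passed by edgeR, with 1 at an unadjusted p under 0.05 and 0 called by DESeq2. The difference between the pairs was not tested, as no residual degree of freedom is left for it. The list summed to 1102 and 482.7 CPM in ROSA-Cre and to 1133 and 1297 CPM in PF4-Cre, with Stfa1 and Stfa3 at 0 in both ROSA-Cre libraries. Monocyte and macrophage genes had 11 of 17 at least 2-fold lower and 0 higher, led by Csf1r, the macrophage growth factor receptor (617 and 155 counts, adjusted p = 0.0352), Ly6c2 (1937 and 543) and Irf8 (1345 and 394), and summed to 451.4 and 190.9 CPM. Sorting had removed lineage-positive cells, and whether RNA of such cells takes part in the falls above, those of Coro1a, Alox5 and Itgam included, was not tested. Without the 12 lists of other cell types, 11011 genes remained, of which 1110 were at least 2-fold higher and 482 lower. Only listed genes were left out, so these counts cannot tell what part RNA of other cells has.

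Markers of other lineages were mixed. Of 27 T and NK cell genes 1 was above the limit, Nkg7 (2232 and 1801 counts), and 10 were at 0 in each ROSA-Cre library, Cd3e and Cd8a among them. Of 18 B cell genes 3 were above it, each lower by less than 2-fold, with Pax5 at 0 in the wild-type and Cd79a and Ebf1 at 0 in the knockout. Genes of eosinophils, basophils and mast cells summed to 462.5 and 377.9 CPM. Of 13 above the limit 2 were at least 2-fold lower (15.4%, beside 4.82% of all genes) and 0 higher. At any size 5 were higher and 8 lower. The highest were Fcer1a, Cpa3 and Prss34 (log2 ratios 0.58, 0.52 and 0.43), and the lowest Siglecf and Hdc (-1.33 each). The mast cell tryptases Tpsab1 and Tpsb2 were at 0 in both, and Prg2, the eosinophil major basic protein, had 5614 and 3510 counts (log2 ratio -0.54, adjusted p = 0.0297). The endothelial cadherin Cdh5 and the transcription factors Sox7 and Sox17 were at 0 in both libraries. Of 4 marrow stromal and bone genes above the limit, 1 was at least 2-fold higher and 2 lower, beside 10.2% and 4.82% of all genes. The collagen gene Col1a2 had 483 and 79 counts, and Vcam1, Runx2 and Nes had log2 ratios of -1.09, 0.30 and 1.41.

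Red cell genes and globins ran in opposite directions. Of 21 red cell genes above the limit 12 were at least 2-fold lower and 0 higher (median log2 ratio -1.51), and of 29 tested over both models 14 fell and 1 rose. The median of the red cell list was -0.89 with a minimum mean of 100 counts over the pair and -0.44 with a minimum of 500 counts in the higher library. Beside Rhd and Klf1, Add2, a spectrin-binding adducin, had 118 and 9 counts and Tspan33 316 and 32, and both fell (adjusted p = 0.0217 and 0.00746). Epb41, protein 4.1 of the membrane skeleton, was the exception that rose, with 4638 and 7432 counts (adjusted p = 0.00526). All 4 adult globin genes were higher, Hbb-bs with 927 and 4956 counts (ratio 5.88, 5.48 to 6.31), Hbb-bt with 242 and 719, Hba-a1 with 188 and 803 and Hba-a2 with 109 and 577. They rose over both models (adjusted p between 0.00185 and 0.00635) and summed to 59.57 and 315.1 CPM in ROSA-Cre and to 11.03 and 180.6 CPM in PF4-Cre. Alas2, the first enzyme of heme synthesis in red cells, had 82 and 276 counts (adjusted p = 0.00755). The heme and iron list that holds Alas2 leaned the other way (median log2 ratio -0.29). Of its 24 genes 2 were at least 2-fold higher and 6 lower, and over both models 3 rose and 8 fell. Globin reads can be split between paralogues, and the part that red cell RNA plays in these values was not tested.

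**Figure D4:**
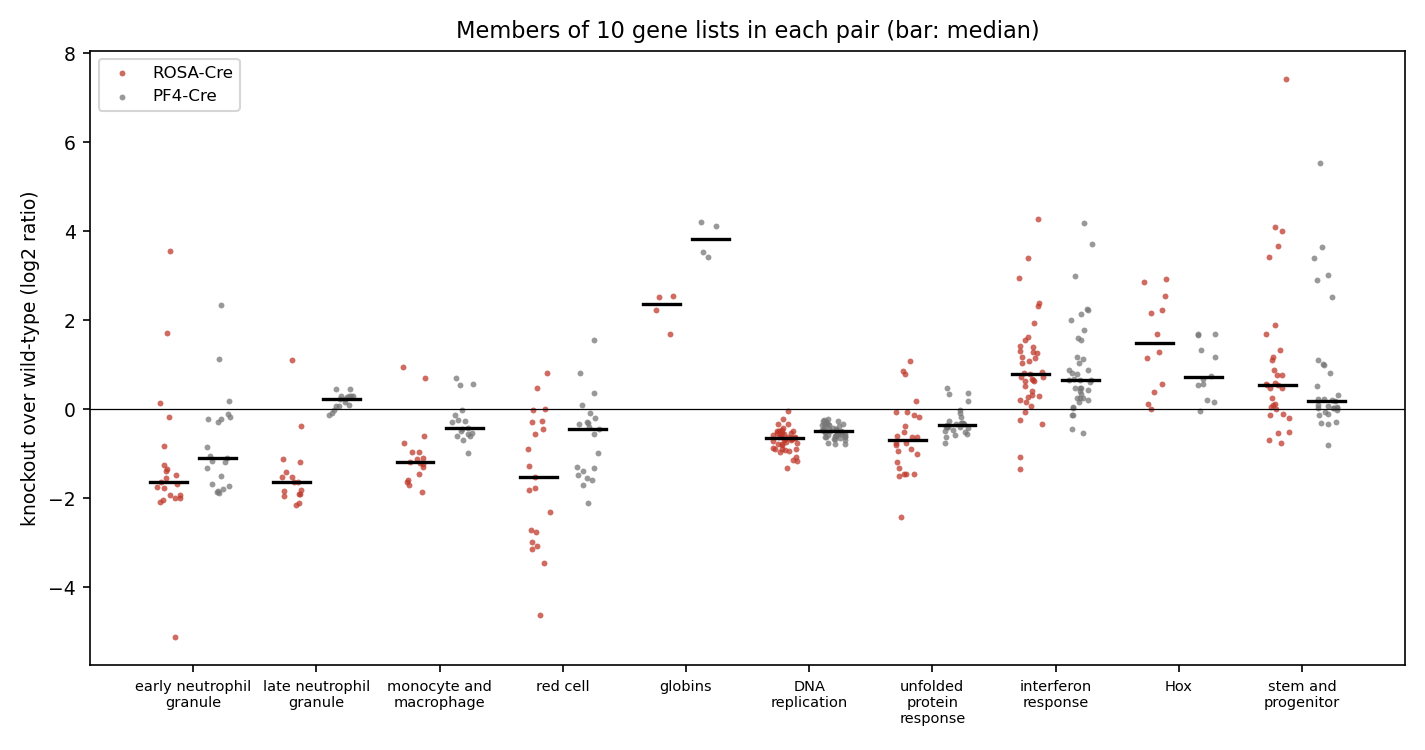
Each point is the log2 ratio of 1 gene of the named list in the ROSA-Cre pair (red) or the PF4-Cre pair (grey), and bars are medians. The late neutrophil points lie mostly below 0 in ROSA-Cre (median -1.63) and close to 0 in PF4-Cre (median 0.23), and the globins lie above 0 in both.

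Genes that mark stem and progenitor cells were higher more often than lower. Of 31 above the limit 10 were at least 2-fold higher and 0 lower (median log2 ratio 0.56, or 0.37 after a correction for GC content and length), and of 38 tested over both models 12 rose and 1 fell. Beside Procr, Fgd5, an exchange factor used as a stem cell reporter, had 59 and 941 counts (ratio 17.5, 13.5 to 23.2), and the stress factor Nupr1 97 and 1428 (ratio 16.2, 13.2 to 20.1), with adjusted p of 0.000299 and 0.000107. Of the endothelial list 5 of 13 genes were at least 2-fold higher and 0 lower, among them Plvap, a protein of endothelial diaphragms (16 and 270 counts), and the sialomucin gene Emcn (20 and 211), which rose (adjusted p = 0.000306 and 0.00239). Homeobox genes of the Hox, Meis and Pbx families were higher at any size in 12 of 12 cases above the limit and at least 2-fold in 8. Hoxa9 had 324 and 1733 counts (ratio 5.88, 5.22 to 6.64), Hoxa5 33 and 235 (7.83, 5.42 to 11.6) and Hoxa3 27 and 185 (7.53, 5.01 to 11.7). These rose over both models (adjusted p = 0.0017, 0.00792 and 0.0237), as did 11 of the 19 tested in the list, with 0 falls. Per kilobase Meis1, a HOX cofactor, was the most abundant (50.4 CPM over the pair), and it had 10540 and 14163 counts (adjusted p = 0.098).

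Signalling pathway lists held more rises than falls past 2-fold, as did all genes described (1132 and 538). In the TGF-beta and BMP list 8 of 24 genes were at least 2-fold higher and 0 lower. The ligand genes Tgfb1 and Gdf3 were among its lowest (log2 ratios -0.999 and -0.93). The BMP receptors Bmpr1a (11 and 114 counts, ratio 11.4) and Bmpr2 (483 and 2014, 4.58) and the nuclear corepressor Tgif1 (100 and 748, 8.22) rose (adjusted p = 0.0241, 0.00132 and 0.00862). Of 20 Wnt genes 7 were at least 2-fold higher and 0 lower, led by the ligand Wnt10b with 14 and 655 counts (ratio 51.4, 30.4 to 94.6, adjusted p = 0.000142) and the receptor Fzd9 (31 and 114, adjusted p = 0.0199). In the Notch list 3 of 21 genes were at least 2-fold higher and 1 lower (14.3% and 4.76%, beside 10.2% and 4.82% of all genes). The lower one was Nrarp, a feedback inhibitor, with 541 and 57 counts (8.64-fold lower, 6.56 to 11.6), which fell (adjusted p = 0.0171). Cytokine receptors went both ways, in a JAK-STAT list where 8 of 42 genes were at least 2-fold higher and 4 lower. These are 19.05% and 9.52%, beside 10.2% and 4.82% of all genes. Csf2rb2, the interleukin-3 receptor beta chain, had 30 and 914 counts (ratio 33.5, 23.3 to 49.9) and Il2rg, the common gamma chain, 80 and 1035 (14.2, 11.3 to 18.1), and both rose (adjusted p = 0.000107 and 0.00269). Il6ra, the interleukin-6 receptor, had 763 and 167 counts and Csf3r, the neutrophil growth factor receptor, 446 and 121, neither passing (adjusted p = 0.0503 and 0.101).

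Interferon response genes were higher in 34 of 39 cases at any size, 17 of them at least 2-fold, and 30 of 48 tested rose while 0 fell. Tlr7, the sensor of single-stranded RNA, had 14 and 266 counts (ratio 20.9, 12.2 to 38.7), Ifi44 34 and 339 (11, 7.69 to 16.1) and Rtp4 36 and 260 (7.94, 5.59 to 11.6), with adjusted p of 0.000271, 0.000391 and 0.00242. The pair that was at least 2-fold lower, Irf5 (319 and 115 counts) and the exonuclease Isg20 (283 and 123), did not pass (adjusted p = 0.0589 and 0.0834). Dendritic cell markers, listed because some of those cells secrete interferon, had 1 of 5 at least 2-fold higher, Clec9a, whose gene overlaps that of Clec1b so that its reads are uncertain. They summed to 161.9 and 287.1 CPM, Ccr9 was at 0 in the wild-type and Batf3 and Cox6a2 in the knockout, and their part was not tested. Interleukin genes included Il15 (194 and 1046 counts, adjusted p = 0.00266) on the higher and Il1b (280 and 30, adjusted p = 0.0669) on the lower side.

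Genes for matrix proteins and ion channels were at least 2-fold higher in 37.0% and 31.7% of cases, beside 10.2% of all genes. In the list of matrix and ADAMTS genes 10 of 27 above the limit were at least 2-fold higher and 5 lower. Col17a1, a collagen of skin anchoring junctions, had 3 and 280 counts (ratio 103, 34.7 to 500.4, adjusted p = 0.000306), against the falls of Col4a1 and Col4a2 given above. Among ion channels 13 of 41 were at least 2-fold higher and 1 lower, and 20 of 75 tested rose while 2 fell. Cacna1e, a voltage-gated calcium channel, had 30 and 1728 counts (ratio 63.3, 44.2 to 94.1) and the ATP-gated channel P2rx7 69 and 658 (10.5, 8.17 to 13.6). Both rose (adjusted p = 0.000107 and 0.000299). Kcnj5, an inward rectifier that was the most abundant channel per kilobase (147 CPM over the pair), had 8558 and 22980 counts (ratio 2.95) and rose as well (adjusted p = 0.00209). The exception on the lower side was the potassium channel Kcnk12 (126 and 20, adjusted p = 0.0401). Imprinted genes beside Plagl1 included the receptor Igf2r, which clears IGF2 (594 and 2840 counts, ratio 5.25, 4.81 to 5.75, adjusted p = 0.000761).

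The PF4-Cre pair, which shares no library with the ROSA-Cre pair, gives the only second measurement of these ratios. Of 11109 genes with 100 or more counts in the higher library of each pair, 674 were at least 2-fold higher in PF4-Cre (6.07%) and 130 lower (1.17%). Of the 1122 ROSA-Cre rises among them, 597 (53.2%) were also at least 2-fold higher in PF4-Cre and 97.0% were higher at any size. Of the 526 genes on the lower side, 94 (17.9%) were also at least 2-fold lower and 92.6% lower at any size, where 41.8% of all genes were higher and 58.2% lower in PF4-Cre. Seen from the PF4-Cre side, 88.6% of its 674 higher and 72.3% of its 130 lower genes also passed 2-fold in ROSA-Cre. Median log2 ratios were 1.57 in ROSA-Cre and 1.05 in PF4-Cre for the higher group, and -1.32 and -0.62 for the lower group. Since ROSA-Cre values chose these groups, their medians are larger there by the choice itself. Across the 11109 genes the log2 ratios had SDs of 0.892 and 0.705 and a Pearson r of 0.835, given as a description because genes are not independent replicates and the pairs share the pipeline.

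Single genes differed between the pairs by more than these medians. Fam135a had 9 and 149 counts in ROSA-Cre (log2 ratio 4.04) and 81 and 148 in PF4-Cre (0.84), and Chst2, given above, had log2 ratios of 7.23 and 3.83. Iigp1, an interferon-inducible GTPase, had 30 and 359 counts in ROSA-Cre (log2 ratio 3.67) and 678 and 1285 in PF4-Cre (0.90). Ank3 had log2 ratios of -5.68 and -0.98, Ly6g6f of -4.40 and 0.19, and the adenylate cyclase gene Adcy5 of -2.76 and 0.22. In the other direction, Rbm20, a splicing regulator of heart muscle, had 85 and 161 counts in ROSA-Cre and 399 and 13771 in PF4-Cre, and Mical2, an actin-oxidising enzyme, 72 and 253 against 63 and 2357. With 1 library a side these differences between the pairs could not be tested.

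**Figure D5:**
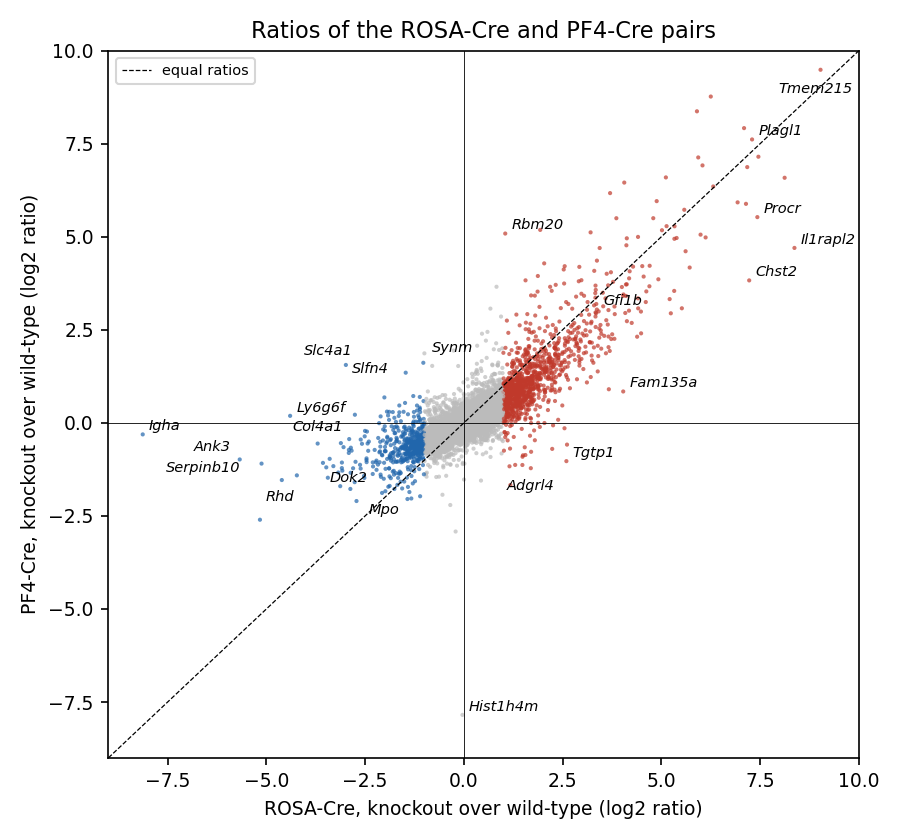
Log2 ratios of knockout over wild-type for 11109 genes, ROSA-Cre on the horizontal and PF4-Cre on the vertical axis, with red and blue marking at least 2-fold higher and lower in ROSA-Cre. Most red points are above 0 on the vertical axis, and the blue points spread further along the ROSA-Cre axis than along the other.

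Genes past 2-fold tended to be neighbours on the chromosome. A neighbour here is the next described gene along it, so genes under the count limit can lie between. Of the higher genes with a position, 15.5% were followed by another higher gene, where 10.2% of all described genes were higher, and of the lower genes 10.1% were followed by another lower gene, where 4.83% were lower. The count was 175 adjacent pairs on the higher and 54 on the lower side. One run on the higher side joined Hoxa3, Hoxa5, Hoxa6, Hoxa7, Hoxa9 and Hoxa10 (log2 ratios 2.87, 2.93, 2.16, 2.23, 2.55 and 1.28). Glul and Cacna1e were neighbours (3.19 and 5.94), as were Gfi1 and the gene A430072P03Rik next to it (3.56 and 3.33), P2rx7 and P2rx4 (3.37 and 1.13), and Clec1b, Clec9a and Clec1a (2.72, 3.11 and 3.66). On the lower side Prtn3 and Elane (-2.03 and -1.91), S100a8 and S100a9 (-1.53 and -1.80) and Col4a1 and Col4a2 (-3.70 and -3.40) lay side by side. Reads of overlapping neighbours can be counted for either gene, and no test was made of these pairs. Over the autosomes, the higher share ran from 6.98% on chromosome 18 to 14.1% on chromosome 6, with 14% on the X chromosome.

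RefSeq promoter windows of the kind shown above were matched by symbol for 8654 of the genes described. AATC or GATT occurred in 66.8% of 876 promoters of genes at least 2-fold higher, in 62.6% of 401 promoters of genes at least 2-fold lower and in 62.55% of 7377 promoters of the others. Over all 27025 genes of the promoter table it was 69.8%. The longer AAATCA, which contains the core, occurred in 10.2%, 7.98% and 6.97% of these groups in that order, and in 12.7% of the whole table. AGATAA occurred in 5.71%, 9.975% and 5.42%, and in 10.2% of the whole table. Median GC content of the windows was 59.0%, 58.8% and 60.4%, a property that bears on how often such AT-rich letters occur. A match is a string of letters in a window and not a bound site.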

How the data were processed

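The data were RNA sequencing libraries of sorted megakaryocytes, 1 in each of 4 groups. The authors deposited 1 table per library with whole-number read counts per Ensembl gene identifier. The libraries were TruSeq stranded mRNA, paired-end, per the labels' protocols. Alignment and counting tools listed by the submitters' processing notes are HTSeq, SAMtools, DESeq and TopHat2 2.0.10, with GRCm38 and mm10 as builds. The sources used here do not give the counting mode, strand setting or annotation release, and near-identical or overlapping genes can share or lose reads.

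Summary entries of the counter were left out of library sizes: reads in no gene were 34.91% and 36.25% and ambiguous reads 0.5307% and 0.5317% of the ROSA-Cre wild-type and knockout libraries. Symbols were matched for 40254 of 41214 identifiers. Counts were scaled by TMM (edgeR 4.0.16, R 4.3.3) over the 4 libraries and given as CPM, and log2 ratios used a pseudocount of 1 on normalised counts. Intervals are 95% Clopper-Pearson (scipy 1.17.1) and, like the floor of 3 counts, cover counting error only, since reads are not independent molecules. A gene needed 100 counts in the higher library of the pair. No test was possible within the pair. The test over both Cre models was the quasi-likelihood F-test of edgeR, adjusted after Benjamini and Hochberg (threshold 0.05, Cre model as a term, filterByExpr), which left 1 residual degree of freedom per gene and moderated it with 6.25 prior degrees. It measures the disagreement of the pairs and not animals, since the labels do not say whether libraries pooled mice. The scripts were tested on simulated data.

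Genes named are Gfi1b and Gfi1, the 12 highest and 12 lowest ratios (predicted, Rik, pseudogene, immunoglobulin and T cell receptor genes left out, by name or by annotated gene type, which took out Serpinb10), the same among genes with a mean of 100 CPM or more, up to 3 each way and the most abundant of each of 61 gene lists, and 8 each way by the difference between the pairs and by opposite change. Other names are stated as chosen after their values were seen, or belong to runs of neighbours or to markers listed at 0. The genes described and the lists were chosen with earlier results of these data known. Alternatives covered scaling, pseudocount, count minimum, fold limit, filter, model, DESeq2 1.42.0 and leaving out each library. Promoter sequences came from RefSeq (GRCm38.p6).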

Additional observations from a re-analysis of the deposited data

Results flagged for a closer look

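The ROSA-Cre and the PF4-Cre pair differed at least 2-fold in opposite directions in 9 genes, of which 3 with predicted gene or pseudogene names are not described and 6 are. Each side is 1 library against 1, so the difference between the pairs was not tested. Slc4a1, the anion exchanger of red cells, had 199 and 22 counts in ROSA-Cre (wild-type first) and 92 and 276 in PF4-Cre, a difference in log2 ratio of -4.55. Slfn4, a Schlafen gene of myeloid cells, had 136 and 44 counts against 471 and 1216 (difference -2.82). Synm, an intermediate filament gene, had 301 and 134 against 1023 and 3175 (difference -2.64).

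The other three of the 6 were higher in the ROSA-Cre library labelled knockout. Adgrl4, an adhesion receptor of endothelium, had 1530 and 3430 counts against 7601 and 3517 in PF4-Cre (difference 2.43). H2-Q1, an MHC class I gene, had 80 and 238 against 394 and 171 (difference 2.91), and Tgtp1, an interferon-inducible GTPase, 42 and 236 against 138 and 68 (difference 3.62). H2-Q1 and Tgtp1 have near-identical copies, so their counts are uncertain.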

How the results depend on the processing

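No fit with a replicate block was made, since each group holds 1 library, and the Cre model term already compares knockout with wild-type within each model. The ROSA-Cre counts of 1132 higher and 538 lower genes moved by less than 1.5 times with DESeq2 size factors (1123 and 551), total gene counts (1213 and 482) and a correction for GC content and length added after seeing the data (1126 and 464). They became 574 and 302 with a minimum of 500 counts, 2035 and 1740 at 1.5-fold, and 346 and 81 at 4-fold, by construction. With the whole counting interval beyond 2-fold, 862 and 346 were left. The share of higher genes among those past the limit was 67.8%, against 53.9% at 1.5-fold and 81.0% at 4-fold. In edgeR's fit over both models (1904 and 1444), DESeq2 called 1655 and 1330. Without a filter on low counts edgeR called 1406 and 529, and without the Cre model term 158 and 4. Leaving out 1 library, where a lone library is assumed to vary like the other group, gave 418 to 741 higher and 56 to 142 lower. The lowest count of higher genes came without the PF4-Cre wild-type (418) and that of lower genes without the ROSA-Cre knockout (56). The share of genes lower in ROSA-Cre that were also 2-fold lower in PF4-Cre was 17.9%, 14.7% with total gene counts, 14.2% with a minimum of 500 counts and 92.6% at any size, and for higher genes 53.2% and 97.0% at any size. List medians moved with the count minimum, as for red cell genes (-1.51, then -0.44 with 500 counts), and with the correction for GC content and length, as for replication histones (-0.61, then -0.21). None of the values recomputed changed sign after being past 2-fold. Beyond counting error, depth does not bound the spread between mice, which 1 library a side cannot give.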

Other observations

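Immunoglobulin genes were left out of the ranking above, and these were named after their values were seen. Of 7 immunoglobulin and J chain genes with 100 or more counts, 3 were at least 8-fold lower in the ROSA-Cre library labelled knockout and 0 at least 2-fold higher. Igha, the IgA heavy chain constant region, had 601 and 1 counts (wild-type first), Iglc2, a lambda light chain constant region, 194 and 4, and Iglv1 109 and 2. In PF4-Cre these genes had 955 and 780, 101 and 16, and 5 and 1 counts. The others differed by less than 2-fold, with Ighm at 2325 and 1152 counts, Igkc at 399 and 239 and Jchain at 543 and 310.

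Genes of the p53 response and the BCL2 family were at least 2-fold higher in 8 of 32 cases and lower in 1, and over both models 12 of 39 rose and 4 fell by edgeR. Trp53inp1, a p53-induced regulator of autophagy and death, had 173 and 842 counts (ratio 5.35, 4.54 to 6.34), and the death receptor Fas 57 and 201 (ratio 3.88, 2.87 to 5.30). Both rose (adjusted p = 0.000291 and 0.00746). Of 11 serpin genes 1 was at least 2-fold higher and 1 lower, of 29 antioxidant genes 2 and 3, and of 6 cadherin genes 1 and 1, beside 10.2% and 4.82% of all genes.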
